A study of Mus musculus with 36 samples.

Results

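Atf3 encodes activating transcription factor 3 (ATF3), a basic leucine zipper protein of the ATF/CREB family. It is 1 of the 16439 genes in the deposited table, chosen by its name, and 1 of the 11656 genes that were expressed highly enough to be tested. It was followed over a time course of lipopolysaccharide (LPS) in mouse bone marrow-derived macrophages because its course was already known to differ between the genotypes. Its own levels and differences are therefore given as a description, with no test, and tests are given only for other genes.

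The libraries came from macrophages carrying Tnip2[D310N] and from wild-type (WT) macrophages. Tnip2 encodes ABIN-2, a ubiquitin-binding partner of the deubiquitinase A20 that also binds and stabilises the kinase TPL-2, the product of Map3k8. D310N is the name used in the sample titles, where the table's column names have D309N. Cells of both genotypes were grown from bone marrow for 7 days in medium that held 10% fetal calf serum together with 10% supernatant of L929 cells, a source of macrophage colony-stimulating factor. They were left without LPS (0 min) or given 100 ng/ml LPS for 30, 60, 120, 240 or 360 min, with 3 libraries for each of the 12 groups. Strain, age, sex and the way the allele was made are not given in the sources used here, and nothing says that the 3 libraries of a group came from separate animals, so p-values measure only the spread between these libraries.

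ATF3 is an early product of many stresses and of Toll-like receptor signalling. It binds DNA as a homodimer or with Jun family and other basic leucine zipper proteins. In macrophages exposed to LPS it is known as a negative feedback factor that restrains inflammatory genes such as Il6 and Il12b, in part with histone deacetylases. Its transcription can be raised by mitogen-activated protein (MAP) kinases and, in the integrated stress response, by ATF4.

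Atf3 (ENSMUSG00000026628.13) lies on the minus strand of chromosome 1, at chr1:191170296-191218039 on GRCm38, and GENCODE M21 gives it 3 transcripts. The 2 coding transcripts each hold a reading frame of 181 codons and differ in where they start. The table gives 1 value for the gene, so the transcripts were not told apart. The sequence just upstream of the start that RefSeq annotates is shown because its letters are a known meeting point of the factors followed in the results: the cAMP response and ATF sites bound by CREB, ATF and Jun dimers, and the composite sites through which ATF4 acts. The window is the minus strand of chr1:191183334-191183583 on GRCm38.p6, 250 bases that end at the base before the start site, and the capitals mark the 2 motif matches.

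Atf3 promoter: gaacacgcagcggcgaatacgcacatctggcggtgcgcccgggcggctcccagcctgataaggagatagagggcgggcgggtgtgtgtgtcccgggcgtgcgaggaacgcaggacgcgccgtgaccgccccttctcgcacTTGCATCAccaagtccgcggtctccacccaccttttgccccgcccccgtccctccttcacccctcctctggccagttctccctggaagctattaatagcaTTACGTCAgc

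The motifs searched, on both strands, were TGACGTCA (the full cAMP response element), TTACGTCA (a variant of it that ATF and CREB proteins bind), TGATGCAA (an ATF4 composite site) and TGANTCA (the AP-1 site). TTACGTCA was found once on the coding strand, with its last base 3 bases before the RefSeq start site, and stands in 147 of 32851 annotated promoter windows of the same build (0.447%). GENCODE M21 places the start of 1 coding transcript 7 bases further upstream, within these letters. TGATGCAA was found once on the other strand, reading TTGCATCA on the coding strand, with its last base 103 bases before the start, and stands in 260 windows (0.791%). These windows run from 250 bases before to 50 bases past the start, and only their first 250 bases were searched. The letters of TGACGTCA and TGANTCA are not in the Atf3 window, and a match is a description of letters, not of binding.

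Atf3 was present at a high level in every library, on the deposited log2 scale of normalised values. Without LPS it had log2 values of 13.14, 13.07 and 13.12 in D310N macrophages and 12.96, 12.95 and 12.97 in WT macrophages. All 3 D310N libraries lay above all 3 WT libraries.

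At 30 min of LPS the values were 13.74, 13.81 and 13.73 in D310N cells, against 13.86, 13.86 and 13.89 in WT cells. Both genotypes had left their starting level, and the D310N libraries were now the lower ones. At 60 min the values were 13.30, 13.50 and 13.30 in D310N cells, against 13.82, 13.88 and 13.87 in WT cells. WT macrophages were still near their 30 min level, while D310N macrophages had lost most of the increment over 0 min. At 120 min the values were 13.46, 13.43 and 13.33 in D310N cells, against 13.69, 13.73 and 13.69 in WT cells, again with no overlap.

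At 240 min the values were 13.97, 13.97 and 14 in D310N cells, against 14.01, 14.04 and 13.99 in WT cells. At 360 min they were 14.14, 14.13 and 14.16 in D310N cells, against 14, 14.11 and 14.11 in WT cells. The genotypes had come together by 240 min, and at 360 min the D310N libraries were marginally higher. The lowest value at 360 min belongs to WT replicate 1, a library that stands apart in all genes (its values are given with the other library facts).

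**Figure D1:**
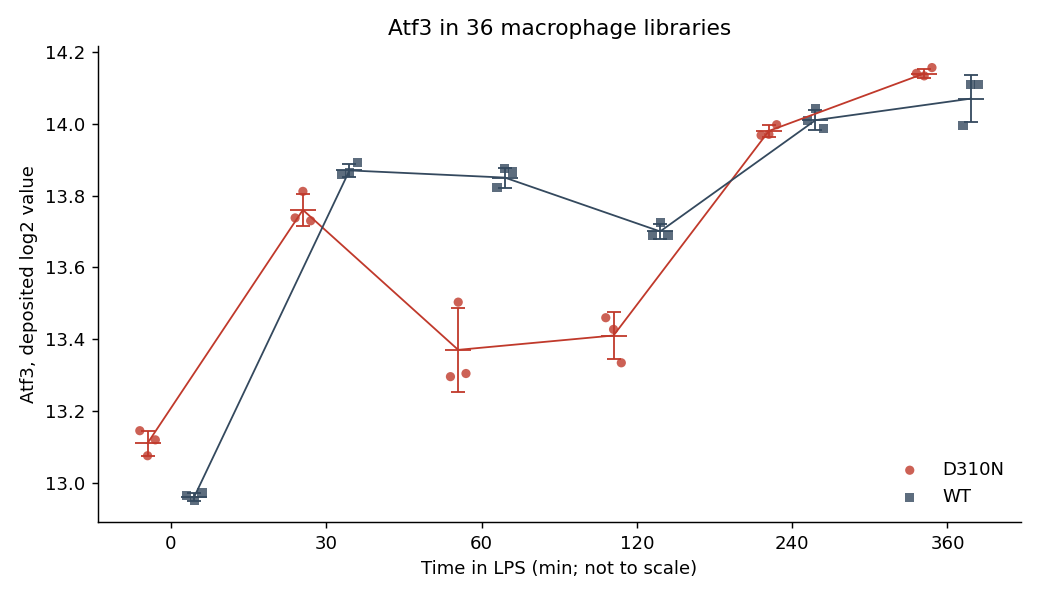
Deposited log2 value of Atf3 (vertical axis) in each of the 36 libraries at 6 times of LPS (horizontal axis, not to scale), with the group mean and SD (n = 3) joined by lines; D310N in red on the left of each pair and WT in dark grey on the right. D310N means are 13.11 at 0 min, 13.76 at 30 min, 13.37 at 60 min and 13.41 at 120 min before reaching 14.14 at 360 min, while the WT means stay between 13.70 and 14.07 after LPS.

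As group means, D310N cells had 13.11 ± 0.035, 13.76 ± 0.045, 13.37 ± 0.117, 13.41 ± 0.065, 13.98 ± 0.016 and 14.14 ± 0.012 at 0, 30, 60, 120, 240 and 360 min (log2, SD, n = 3). WT cells had 12.96 ± 0.010, 13.87 ± 0.017, 13.85 ± 0.028, 13.70 ± 0.021, 14.01 ± 0.028 and 14.07 ± 0.066 at the same times. Ordered from low to high, the 12 groups ran WT 0 min, D310N 0 min, D310N 60 min, D310N 120 min, WT 120 min, D310N 30 min, WT 60 min, WT 30 min, D310N 240 min, WT 240 min, WT 360 min and D310N 360 min. Neighbours in this order whose libraries overlapped were D310N 60 and 120 min, WT 60 and 30 min, D310N and WT 240 min, and WT 240 and 360 min. The D310N groups at 60 and 120 min thus lay between the unstimulated groups and every WT group that had received LPS. The spread was widest in D310N cells at 60 min, where replicate 2 was 0.135 above the group mean.

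The difference between D310N and WT was 0.15 at 0 min, −0.11 at 30 min, −0.49 at 60 min, −0.29 at 120 min, −0.03 at 240 min and 0.07 at 360 min, each log2 with a standard error of 0.042. This standard error comes from the limma fit, which pools the spread over all 12 groups, so it is the same at every time. The D310N libraries at 60 min spread more widely than the others, with an SD of 0.117. On the linear scale Atf3 was 28.7% lower in D310N cells at 60 min and 18.4% lower at 120 min. The libraries of the genotypes did not overlap at any time but 240 min. Non-overlap is common in these data, at 32.7% of all genes tested at 0 min, 33.4% at 30 min, 37.4% at 60 min, 31.7% at 120 min, 37.6% at 240 min and 22.2% at 360 min, and nothing is read from it for Atf3. At 60 min 385 of the 11656 genes (3.3%), Atf3 among them, had a difference as low or lower, and at 120 min 1013 genes (8.69%) did. Without WT replicate 1 the difference at 360 min was 0.03. In a bulk sample, fewer cells expressing the gene and less RNA per cell cannot be told apart.

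Against 0 min of the same genotype, Atf3 was 1.57, 1.19, 1.23, 1.82 and 2.04 times as high in D310N cells at 30, 60, 120, 240 and 360 min. In WT cells it was 1.88, 1.86, 1.67, 2.07 and 2.16 times as high. Every stimulated library lay above all 3 unstimulated libraries of its genotype. That held for 17.5%, 27.9%, 33.5%, 40.6% and 40.9% of all genes tested in D310N cells and for 15.1%, 29.6%, 34%, 40.9% and 37.4% in WT cells at the same times. The course therefore had an early increment, a trough that was deep at 60 and 120 min in D310N cells and shallow at 120 min in WT cells, and a later increment above the early one.

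The size of these increments, and the order of the early and late levels, depended on the scaling of the libraries. At 0 min 197 of the 11656 genes tested had a higher mean than Atf3 in D310N cells and 226 did in WT cells, and at 360 min 154 and 170 did. Under quantile normalisation, which gives every library the same distribution, the means in D310N cells were 13.48, 14.05, 13.49, 13.37, 13.60 and 13.73 at 0, 30, 60, 120, 240 and 360 min. The means in WT cells were then 13.37, 14.19, 13.94, 13.63, 13.60 and 13.63. On that scale the late levels were below the 30 min level in both genotypes, and D310N cells at 120 min were 0.11 below their own 0 min level. The differences between the genotypes at 60 and 120 min changed little, at −0.45 and −0.26.

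The log2 increment over 0 min was 0.65, 0.25, 0.29, 0.87 and 1.03 in D310N cells and 0.91, 0.89, 0.74, 1.05 and 1.11 in WT cells at the 5 times of LPS. The D310N increment minus the WT increment was −0.26, −0.64, −0.44, −0.18 and −0.08, each with a standard error of 0.06 from the same pooled limma fit. At 60 min 14 of the 11656 genes (0.12%), Atf3 included, had a difference in increment as low or lower; at 30 min it was 230 genes (1.97%) and at 120 min 148 genes (1.27%). The gap opened mainly between 30 and 60 min, when the Atf3 mean moved by −0.39 in D310N cells and by −0.02 in WT cells.

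To place this beside other genes induced by LPS, the D310N increment was expressed as a percentage of the WT increment for genes called higher in WT at that time by at least 0.5 log2. For Atf3 it was 71.1%, 28.5%, 39.8%, 82.4% and 92.9% at 30, 60, 120, 240 and 360 min. The medians over 194, 849, 1786, 2802 and 2830 such genes were 101%, 99.9%, 97.2%, 95.7% and 98.2%. At 240 and 360 min the percentage of Atf3 was common, with 16.9% and 33.7% of such genes as low or lower. At 60 min 5 of the 849 genes (0.589%), including Atf3, kept as little or less, and the others were Loxl2 (a lysyl oxidase of the extracellular matrix), Gnat3 (a G protein alpha subunit), Dock9 (a guanine nucleotide exchange factor) and Gm5512. Loxl2 had an increment of −0.24 in D310N cells and 0.59 in WT cells, and Gm5512 one of 0.50 in D310N cells and 1.81 in WT cells. Just above Atf3 stood Zbtb20, a zinc finger repressor, at 30.2%, Gm16793 at 33.5% and Smad7, an inhibitor of transforming growth factor beta signalling, at 35.1%. These genes were listed by that percentage, and no test is given for them.

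**Figure D2:**
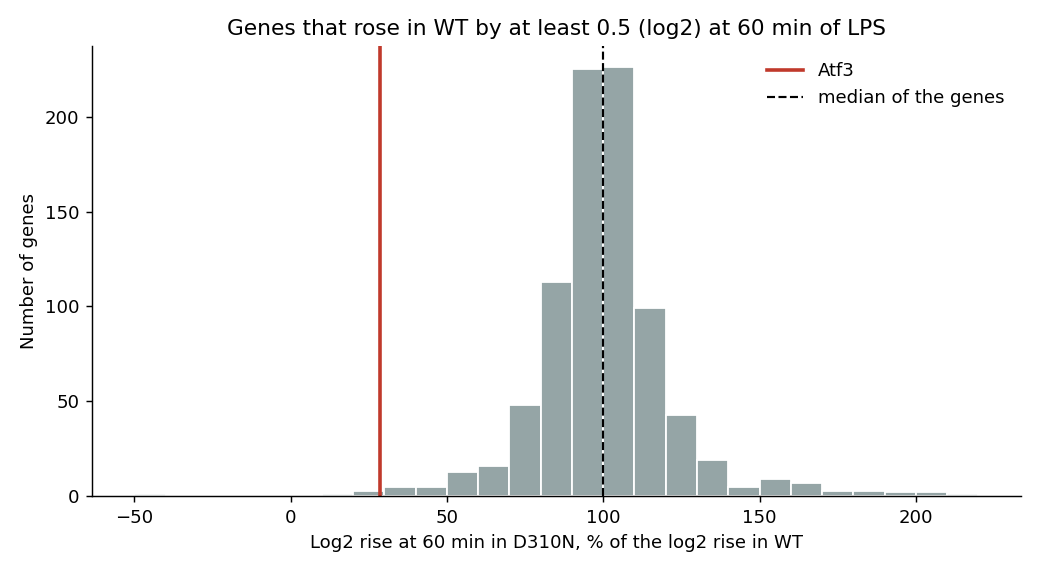
Number of genes (vertical axis) by the log2 increment at 60 min of LPS in D310N cells as a percentage of that in WT cells (horizontal axis), for the 849 genes called higher in WT by at least 0.5 log2. The red line marks Atf3 at 28.5%, in the far left tail, and the dashed line the median of 99.9%.

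Immediate early genes, which respond to a stimulus without new protein synthesis, are the class to which Atf3 is usually assigned. Of the 28 in the list, 22 rose in WT cells at 30 min and the other 6 did not pass the test, while 4.79% of all genes tested rose and 1.3% fell. At 60 min 22 rose and 3 fell, with 20.1% of all genes up and 17.1% down. At 120 min 12 rose and 10 fell (32.4% and 34.2% of all genes), at 240 min 14 rose and 11 fell (39.6% and 40.4%) and at 360 min 14 rose and 9 fell (39.3% and 41.0%). Egr1, a zinc finger factor, had a log2 increment in WT cells of 5.16 ± 0.156 (SE) at 30 min with an adjusted p of 1.85e-22 by limma, and of 0.28 at 120 min with an adjusted p of 0.119. Fos, an AP-1 subunit, was up by 2.64 at 30 min (adjusted p = 4.2e-24) and fell by 1.34 at 120 min (adjusted p = 2.54e-17). Junb, Klf6, Dusp2 and Zfp36 instead held increments of 1.74, 1.48, 3.49 and 2.18 at 360 min. Under quantile normalisation the share of calls in WT cells that were increases was 49.2% at 30 min and 35.4% at 60 min, in place of 78.6% and 54.0%.

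Among all genes, 208 had a called rise of at least 0.5 log2 at 30 min in D310N cells and 194 did in WT cells. In D310N cells 46 of these were highest at 30 min, 81 at 60 min and 25, with Atf3, at 360 min. In WT cells 38 were highest at 30 min, 78 at 60 min and 22, with Atf3, at 360 min. The sequence seen for Atf3, lower at 120 min than at 30 min and higher at 360 min than at 30 min, was shared by 18 of the 208 genes in D310N cells and 17 of the 194 in WT cells, Atf3 counted in both. This classification rests on the deposited scaling, like the order of early and late levels above.

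The genes with the course most like that of Atf3 were found by Pearson's r over the 12 group means, among the 4088 genes whose highest group mean was 50 or more (linear) and whose means spanned at least 1 log2. The 10 highest were Klf6 (0.929), Rgs1 (0.928), Il10 (0.908), Ptger4 (0.887), Tagap (0.886), Slc25a25 (0.886), Taf7 (0.879), H3f3b (0.868), Hspa1a (0.849) and Mxd1 (0.84). The median r was −0.033, and 23 genes reached 0.8. All 12 means come from the same libraries, so r is a description of shape with no test. The list depends on the measure: a rank correlation kept 4 of the 10, D310N means alone 2 and WT means alone 3.

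Klf6, a zinc finger factor of the Krüppel-like family, had the closest course. Its means were 13.07, 14.16, 14.15, 13.76, 14.56 and 14.56 in D310N cells and 13.13, 14.28, 14.25, 13.82, 14.70 and 14.62 in WT cells. It shared the early increment, the dip at 120 min and the late level of Atf3, but its difference between D310N and WT at 60 min was −0.10, where that of Atf3 was −0.49. Il10, the anti-inflammatory cytokine, had 7.87, 8.06 and 8.02 in D310N libraries at 60 min, against 8.38, 8.48 and 8.34 in WT libraries. At 240 min it had 8.14, 8.02 and 8.24 in D310N libraries, against 9.26, 9.13 and 8.81 in WT libraries, so its gap was widest when that of Atf3 had closed. Rgs1, which speeds the shut-off of G protein signals, had differences between D310N and WT of −0.18 at 60 min and −0.38 at 240 min, and those of Mxd1, a Max-binding repressor, ran from −0.58 to −0.27 over the 6 times. The other genes of the list differed by −0.13 to 0.17 at 60 min: they are Ptger4 (a prostaglandin E receptor), Tagap (named as a GTPase-activating protein of T cells), Slc25a25 (a mitochondrial carrier), Taf7 (a subunit of the general factor TFIID), H3f3b (a replacement histone) and Hspa1a (a heat shock protein). Of the 7 of these 10 genes with an annotated promoter window, Slc25a25 held TGACGTCA, and the letters TTACGTCA and TGATGCAA were in none of the 7 windows.

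**Figure D3:**
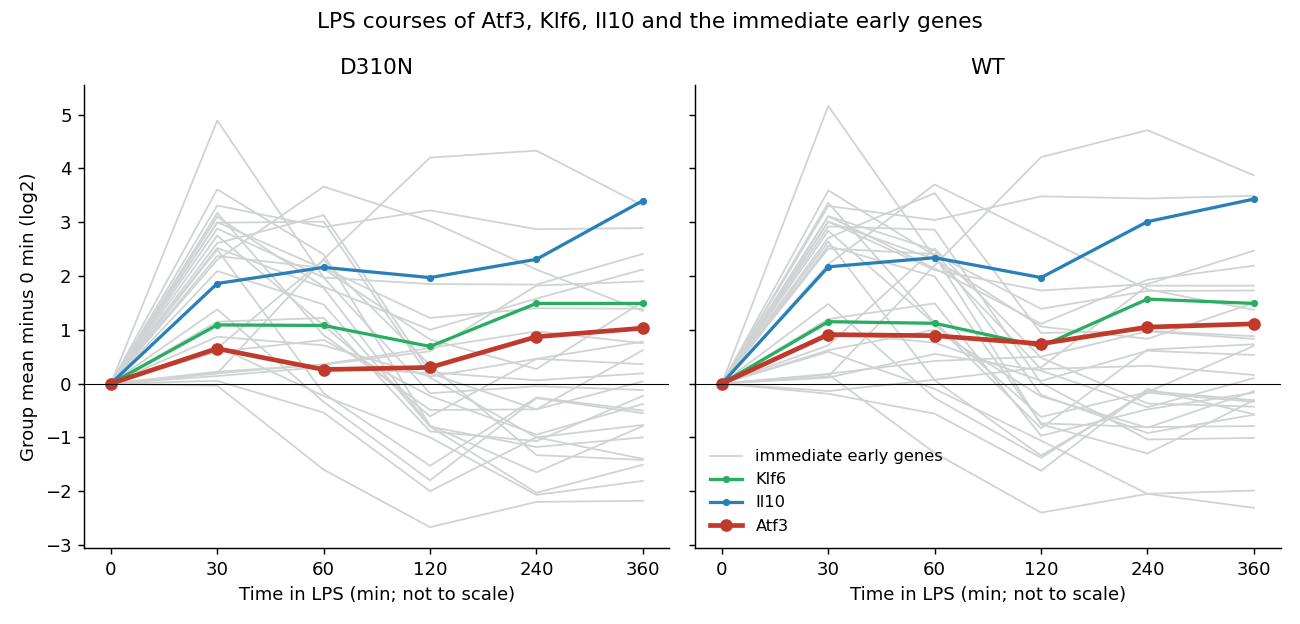
Group mean minus that at 0 min (log2, vertical axis) at 6 times of LPS (horizontal axis, not to scale), D310N in the left panel and WT in the right. Atf3 (red), Klf6 (green) and Il10 (blue) are drawn over the 28 immediate early genes (grey); Atf3 drops to 0.25 at 60 min in D310N cells and stays at 0.89 in WT cells.

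The 5 genes most opposed to Atf3 were Hgh1 (r = −0.862), F630028O10Rik (−0.858), Cirbp, which encodes a cold-inducible RNA-binding protein (−0.816), Angptl4, a lipoprotein lipase inhibitor (−0.798), and Dpm1, a subunit of a mannose transferase (−0.798). F630028O10Rik was also the one with the largest difference at 60 min, 7.77 in D310N cells and 7.05 in WT cells. Within groups, the deviations of the 36 libraries from their means followed Atf3 best for Trim32 (0.732), Lgals3bp (0.726), Slc35c1 (0.707), Bambi-ps1 (0.702) and Fcgr4 (0.693) among 10225 genes, as a description with no test.

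Genes upstream of Atf3 in LPS signalling were examined at 60 and 120 min, when Atf3 differed most. Of the 9 genes for TLR4, the LPS receptor, and its adaptors, limma called 0 at 60 min, where 1 had an unadjusted p under 0.05, and 2 lower in D310N cells at 120 min. Over all genes tested, the share called higher in D310N cells was 3.64%, 4.43%, 4.89%, 7.94%, 6.98% and 6.8% at 0, 30, 60, 120, 240 and 360 min. The share called lower was 7.09%, 7.78%, 7.96%, 9.72%, 10.0% and 9.52% at the same times. Under median scaling 52.8%, 51.7% and 51.8% of the calls at 0, 30 and 60 min were increases, in place of 33.9%, 36.3% and 38.1%. Tlr4 itself differed by −0.26 ± 0.064 (log2, SE) at 120 min (adjusted p = 0.00377, limma) and Myd88, a main adaptor, by −0.17 ± 0.037 (adjusted p = 0.00141). The Myd88 call was lost when the libraries of that time were fitted alone (adjusted p = 0.0516). Without WT 360 min replicate 1 the counts in either direction at 60 and 120 min were 1 and 5, and without D310N 60 min replicate 2 the count at 60 min was 1. Under quantile normalisation, and with the libraries of that time alone, the count at 60 min was 2.

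Of the 18 MAP kinase cascade genes, 1 was called higher in D310N cells at 60 min, and 2 were called higher and 1 lower at 120 min. The shares of all genes tested were 4.89% higher at 60 min, and 7.94% higher and 9.72% lower at 120 min. The 1 gene at 60 min was Map2k1, which encodes a kinase that activates ERK, with a difference of 0.13 ± 0.037 (adjusted p = 0.019, limma). The count at 60 min was 0 without WT 60 min replicate 1 or D310N 60 min replicate 1 or 3, 2 without WT 360 min replicate 3, D310N 120 min replicate 3 or D310N 360 min replicate 1, and 3 without WT 360 min replicate 1. It was 2 under median scaling and 3 with the libraries of that time alone, and the Map2k1 call was lost under quantile normalisation (adjusted p = 0.0508). Map3k8, which encodes TPL-2, differed by −0.21 ± 0.051 at 120 min (adjusted p = 0.00332). Mapk14, which encodes p38 alpha, was 0.36 ± 0.065 higher at 120 min (adjusted p = 0.000164) and 0.50 ± 0.065 higher at 240 min (adjusted p = 3.1e-06). Its LPS course also differed between the genotypes (adjusted p = 0.00137 by a joint limma test of the 5 responses), as did that of 4.84% of all genes tested. These are RNA levels and say nothing of kinase activity.

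In the integrated stress response, the pathway in which ATF4 raises Atf3, 7 of 16 genes were called lower in D310N cells at 60 min and 1 higher, and 6 were called lower and 1 higher at 120 min. The shares of all genes called lower at these times were the 7.96% and 9.72% given above, and those called higher 4.89% and 7.94%. Without LPS 4 of the 16 were called lower and 0 higher, against 7.09% and 3.64% of all genes tested. Leaving out WT 360 min replicate 1, 7 were called in either direction at 0 min. Leaving out 1 library at a time, 7 to 10 of the 16 were called in either direction at 60 min and 7 to 8 at 120 min. The median log2 difference of the list was −0.25 at 60 min and −0.13 at 120 min, where the median of all genes tested was 0.01 at 120 min.

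At 60 and 120 min the largest differences of this list were in targets of ATF4. Chac1, a glutathione-degrading enzyme, differed by −1.03, −1.16, −1.29 and −1.36 at 0, 30, 60 and 120 min, with a standard error of 0.211 and adjusted p-values of 0.00105, 0.000224, 5.94e-05 and 2.22e-05 by limma. Trib3, a pseudokinase, had 6.03, 5.76 and 5.77 in D310N libraries at 60 min, against 6.45, 6.75 and 6.79 in WT libraries. At 120 min it had 4.79, 5.15 and 4.47 in D310N libraries, against 5.78, 6.14 and 6.04 in WT libraries. The libraries did not overlap at either time, as in 37.4% and 31.7% of all genes tested at 60 and 120 min. The Trib3 differences were −0.81 ± 0.145 (adjusted p = 0.000192) and −1.18 ± 0.145 (adjusted p = 6.65e-07). Asns, asparagine synthetase, differed by −0.49 at 0 min and by −0.37 to −0.68 after LPS, with all 6 adjusted p-values under 0.05. The call at 30 min was lost without WT 30 min replicate 2 (adjusted p = 0.0674), and that at 360 min with the libraries of that time alone (adjusted p = 0.171). Asns and Chac1 were thus called lower in D310N cells also at 0 min, when Atf3 was 0.15 higher.

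Atf4 differed by −0.29 ± 0.076 at 60 min (adjusted p = 0.009, limma), a call lost without D310N 60 min replicate 2 (−0.24, adjusted p = 0.062). Its differences at 0 and 360 min were −0.14 and 0.07, with adjusted p-values of 0.296 and 0.594, and that at 360 min was −0.06 without WT 360 min replicate 1. Ddit3, which encodes the ATF3 partner CHOP, differed by −0.35 ± 0.082 at 60 min (adjusted p = 0.00369). Slc7a11, the cystine transporter and also an ATF4 target, went the other way, with 0.70 ± 0.155 at 120 min (adjusted p = 0.00163) and 0.74 ± 0.155 at 240 min (adjusted p = 0.00118). Eif2ak2, the double-stranded RNA sensor kinase PKR, differed by −0.40 ± 0.049 at 120 min (adjusted p = 5e-07), and was the 1 gene of the 16 whose LPS course was called different (adjusted p = 0.00438). That count was 3 without WT 360 min replicate 1 or 2, and 2 without WT 0 min replicate 2, WT 360 min replicate 3, or D310N 120 min replicate 2 or 3.

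**Figure D4:**
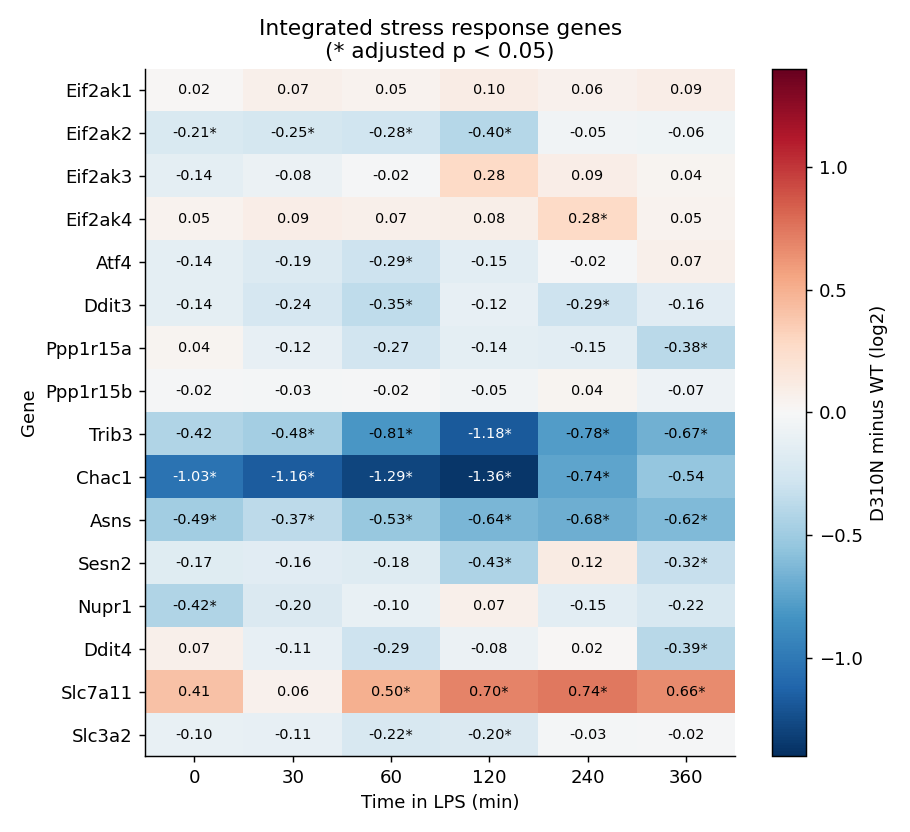
D310N minus WT (log2, colour and printed value) for the 16 integrated stress response genes (rows) at 6 times of LPS (columns); an asterisk marks an adjusted p under 0.05. Trib3, Chac1 and Asns are blue, lower in D310N cells, at each time, and Slc7a11 is red, with 0.70 at 120 min.

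Several other members of the ATF/CREB family rose later than Atf3 over the LPS course. Of 21 tested, 8 rose and 1 fell in WT cells at 60 min, and 12 rose and 5 fell at 360 min. Of all genes tested, 20.1% rose and 17.1% fell at 60 min, and 39.3% rose and 41.0% fell at 360 min. Jdp2, a repressor close in sequence to ATF3, rose by 2.90 ± 0.053 log2 in WT cells at 60 min (adjusted p = 7.73e-29, limma) and by 3.73 at 120 min (adjusted p = 7.33e-32), when Atf3 was in its trough. Batf and Batf2, partners of Jun proteins, rose by 2.34 and 2.22 in WT cells at 120 min (adjusted p = 1.04e-18 and 1.13e-17). None of these had the increment of Atf3 at 30 min: Jdp2, Batf and Batf2 had 0.09, 0.03 and −0.06 there.

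Between the genotypes, 4 of the 21 family genes were called lower in D310N cells at 60 min, namely Atf4, Batf, Creb5 and Jdp2, of which the Creb5 call was lost without any 1 of 5 libraries of that time (adjusted p = 0.079 to 0.184), and 4 lower and 2 higher at 120 min. Among all genes tested, 4.89% were called higher and 7.96% lower at 60 min, and 7.94% higher and 9.72% lower at 120 min. Batf had 6.96, 7.05 and 6.97 in D310N libraries at 60 min, against 7.62, 7.43 and 7.43 in WT libraries. Like 37.4% of all genes tested at that time, Batf had no overlap. Its difference was −0.50 ± 0.106 (adjusted p = 0.00124), close in size to that of Atf3. Batf2 differed by −0.68 ± 0.11 at 120 min (adjusted p = 4.37e-05) and Creb5 by −0.48 ± 0.103 (adjusted p = 0.00119). The 60 min count was 2 without WT 60 min replicate 1 or without D310N 60 min replicate 3, and the count of 6 at 120 min was 2 to 7 when 1 library was left out, with 2 or 3 left without WT replicates 1 or 3 or D310N replicates 1 or 3 of that time.

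Of 7 genes for known dimer partners of ATF3, Jun had the largest difference at 120 min. It had 12.21, 12.24 and 12.16 in D310N libraries at 30 min, against 12.36, 12.36 and 12.32 in WT libraries. At 120 min it had 9.11, 9.05 and 8.90 in D310N libraries, against 9.51, 9.46 and 9.50 in WT libraries. Both genotypes were then far below their 30 min level, and the difference between D310N and WT was −0.47 ± 0.063 (adjusted p = 2.94e-06, limma). Junb was 0.24 ± 0.040 higher in D310N cells at 0 min (adjusted p = 9.59e-05), as Atf3 was higher there. Jund was 0.33 ± 0.092 higher at 120 min (adjusted p = 0.0119), a call lost without D310N 120 min replicate 1 (adjusted p = 0.115). Of the 7 genes, 2 were called lower at 60 min, and 2 higher and 1 lower at 120 min, where without D310N 120 min replicate 1 only 1 was called. The shares of all genes tested were 7.96% lower at 60 min, and 7.94% higher and 9.72% lower at 120 min.

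The partners at 60 min were Ddit3, given above, and Jdp2, which had 11.41, 11.45 and 11.37 in D310N libraries against 11.71, 11.55 and 11.54 in WT libraries. Its difference of −0.19 ± 0.053 (adjusted p = 0.0134) was lost without WT 60 min replicate 1 (adjusted p = 0.154) or D310N 60 min replicate 3 (adjusted p = 0.0762). Jun and Junb were the 2 of 7 whose LPS course was called different by the joint test, with adjusted p-values of 0.0246 and 0.00132. That test called 4.84% of all genes tested. The Jun call was lost without WT 120 min replicate 1 or 3 or D310N 120 min replicate 3, with adjusted p-values of 0.0626, 0.0538 and 0.0833.

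Of 6 genes that ATF3 has been reported to repress in macrophages, 4 were called lower in D310N cells at 60 min, when Atf3 was furthest below WT. The share of all genes tested that were called lower at that time was 7.96%. Leaving out 1 library at a time, 3 to 5 of the 6 were called in either direction at 60 min. The median log2 difference of the 6 was −0.35 at 60 min and −0.33 at 120 min. At 120 min 1 of the 6 was called lower and 0 higher, against 9.72% and 7.94% of all genes tested. The count called in either direction was 5 without WT 360 min replicate 1 and 4 without WT 360 min replicate 2. It was 2 without WT 120 min replicate 2 or WT 240 min replicate 1 or 2. It was also 2 without WT 360 min replicate 3 or D310N 360 min replicate 1. With the libraries of that time alone it was 5, under median scaling and with a replicate block 3, and with a filter of 50 it was 2. Both counts of 5 took in Tnf, which was called higher in D310N cells. In WT cells 3 of the 6 rose at 30 min and all 6 at each later time, Il6 by 6.16 log2 at 240 min. Of all genes tested, 4.79%, 20.1%, 32.4%, 39.6% and 39.3% rose in WT cells at 30, 60, 120, 240 and 360 min.

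Ifnb1, which encodes interferon beta, had 8, 8.18 and 8.10 in D310N libraries at 60 min, against 9.12, 9.10 and 9.03 in WT libraries, with a wide gap. Its difference was −0.99 ± 0.216 (adjusted p = 0.00163, limma). Ch25h, which encodes cholesterol 25-hydroxylase, had 8.53, 8.75 and 8.63 in D310N libraries at 60 min, against 9.41, 9.34 and 9.34 in WT libraries. It was lower in D310N cells from 0 to 240 min, by −0.50, −0.49, −0.73, −0.47 and −0.59 with a standard error of 0.073, and the adjusted p was 3.16e-08 at 60 min. At 360 min its difference was 0.12 (adjusted p = 0.298), and its LPS course was called different (adjusted p = 4.31e-05).

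Il12b, a subunit of interleukin 12, differed by −0.36 ± 0.099 at 60 min (adjusted p = 0.0128), which was lost without WT 60 min replicate 1 (−0.33, adjusted p = 0.0659), and by −0.41 ± 0.099 at 240 min (adjusted p = 0.00401). At 120 min its difference was −0.28 (adjusted p = 0.0502), which passed the test with a replicate block (adjusted p = 0.0367). The chemokine Ccl4 differed by −0.35 ± 0.090 at 60 min (adjusted p = 0.00818). Il6 had differences of −0.34 at 60 min (adjusted p = 0.124) and −0.39 at 120 min (adjusted p = 0.0567). Without WT 360 min replicate 1 both Il6 differences passed the test (adjusted p = 0.0279 and 0.00843), and likewise without WT 360 min replicate 2 (adjusted p = 0.0148 and 0.00395) and with the libraries of each time alone (adjusted p = 0.0015 and 0.011). At 120 min Il6 also passed with a replicate block (adjusted p = 0.03) and under median scaling (adjusted p = 0.0498). Tnf had a difference of 0.03 ± 0.124 at 60 min (adjusted p = 0.936), whose sign turned under quantile normalisation (−0.05) and without D310N 60 min replicate 1 (−0.01). At 120 min Tnf did not pass the test over all libraries (adjusted p = 0.185). It passed as higher in D310N cells, by 0.24, without WT 360 min replicate 1 (adjusted p = 0.0231). With the libraries of that time alone it passed in the same direction (0.24, adjusted p = 0.0294).

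**Figure D5:**
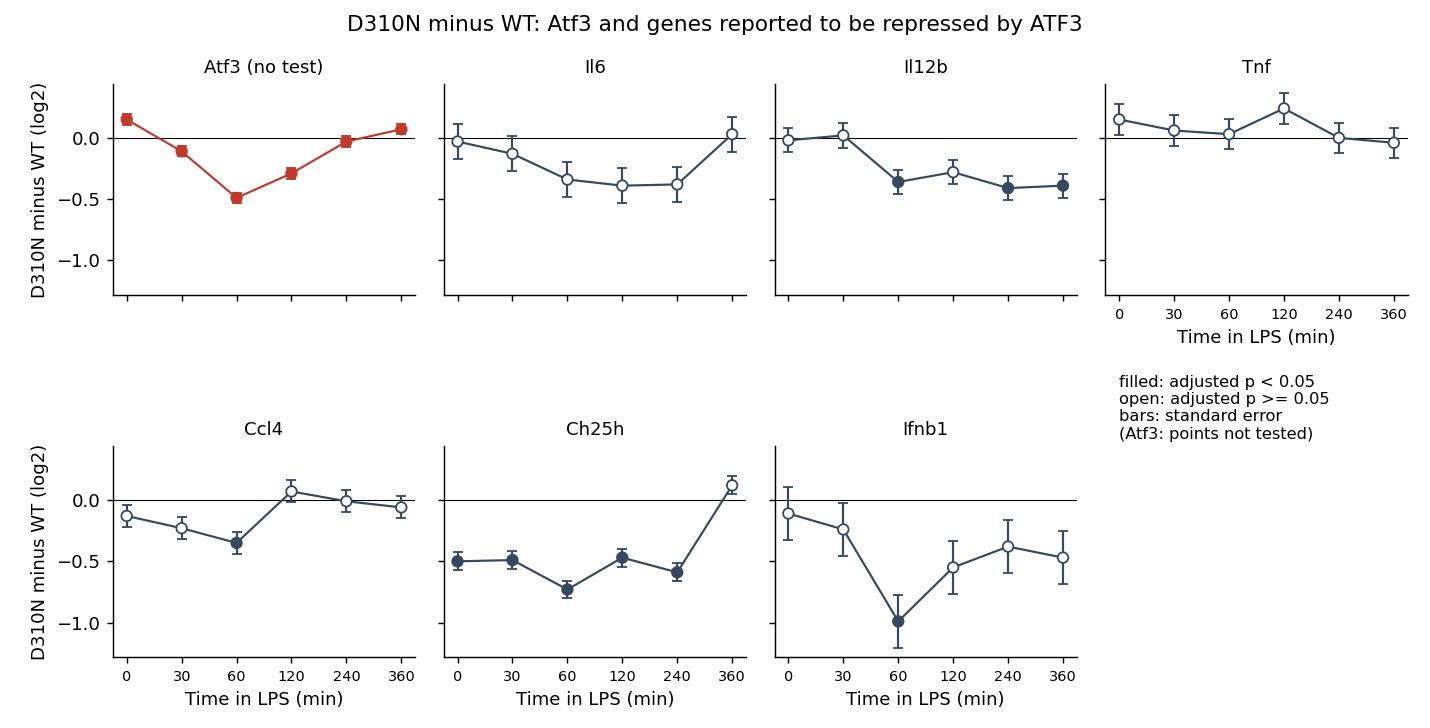
D310N minus WT (log2, vertical axis) at 6 times of LPS (horizontal axis) for Atf3 and the 6 genes reported to be repressed by ATF3, with standard errors; filled points have an adjusted p under 0.05, open points do not, and Atf3 was not tested. The lowest point lies at 60 min for Atf3 (−0.49), Ccl4 (−0.35), Ch25h (−0.73) and Ifnb1 (−0.99), while Tnf stays between −0.04 and 0.24.

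Of 6 genes for NF-kB subunits and for histone deacetylases reported to act with ATF3, limma called 0 at 60 min, with 2 at an unadjusted p under 0.05. Hdac1, which encodes a deacetylase, was the 1 gene called at 120 min, with a difference of −0.16 ± 0.048 (adjusted p = 0.0171). That count was 0 without WT 120 min replicate 3 or D310N 120 min replicate 1 or 2, and with the libraries of that time alone. At 60 min it was 1 under quantile normalisation and under median scaling. Among all genes tested, 4.89% were called higher and 7.96% lower at 60 min, and 7.94% higher and 9.72% lower at 120 min. In WT cells 5 of the 6 rose and 1 fell at 120 min, when 32.4% of all genes tested rose and 34.2% fell.

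In the immediate early list, beside which Atf3 was set above, genes were called in both directions between the genotypes. Of all genes tested, 3.64%, 4.89%, 7.94% and 6.98% were called higher in D310N cells at 0, 60, 120 and 240 min. The shares called lower at these times were 7.09%, 7.96%, 9.72% and 10.0%. Of the 28 in the list, 5 were called higher in D310N cells and 1 lower at 0 min. At 60 min 2 of the 28 were called, Egr2 and Fosl1, both higher. The count at 60 min was 5 without WT 360 min replicate 1, 0 without WT 60 min replicate 3, and 1 without WT 60 min replicate 1 or 2 or D310N 60 min replicate 1 or 3. It was 9 with the libraries of that time alone, 4 under quantile normalisation and 1 without the filter on low values. At 120 min, when Atf3 was also lower, 4 were called higher and 2 lower, 6 in all, against 11 without WT 360 min replicate 1 and 3 without D310N 120 min replicate 1. At 240 min 1 was called higher and 7 lower, 8 in all, against 15 without WT 360 min replicate 1 or with the libraries of that time alone, 4 without WT 240 min replicate 1 and 5 under quantile normalisation. Egr2, a zinc finger factor, was 1.07 ± 0.102 higher at 0 min (adjusted p = 1.1e-08). Dusp5, an ERK phosphatase, was 0.41 ± 0.098 higher at 0 min (adjusted p = 0.00465; without D310N 0 min replicate 1, 0.34 and 0.0576) and differed by −0.52 ± 0.098 at 240 min (adjusted p = 0.000444), when Atf3 was level. Klf4, Myc and Dusp2 differed by −0.83, −0.48 and −0.42 at 240 min (adjusted p = 6.7e-06, 0.000608 and 0.00135). The LPS course of 8 of the 28 was called different, and of 17 without WT 360 min replicate 1. Over all libraries that of 4.84% of all genes tested was called different.

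None of the genes tested around Atf3 on chromosome 1 had its early increment. GENCODE M21 annotates 23 other genes within 250 kb, of which 8 were tested and 3 more stood in the table below the filter. At 0 min 1 of the 8 was called higher in D310N cells, Tmem206 by 0.22 (adjusted p = 0.0405, limma), and 1 was called lower. The shares of all genes tested were 3.64% and 7.09%. At 60 min the 1 of the 8 called different was Nsl1, a kinetochore gene 83822 bases away, with −0.52 ± 0.129 in D310N cells (adjusted p = 0.00548, limma). At that time 4.89% of all genes tested were called higher and 7.96% lower. Nsl1 was called lower also at 30, 120, 240 and 360 min, by −0.59, −0.50, −0.60 and −0.46 (adjusted p = 0.00174, 0.00574, 0.00142 and 0.0133). At 0 min its difference was −0.38 (adjusted p = 0.0523), so its lower level was not particular to the times when Atf3 was lower. Vash2, an angiogenesis gene, differed by −0.64 at 0 min (adjusted p = 0.0152) and −0.69 at 30 min (adjusted p = 0.00824), calls lost without WT 0 min replicate 3 or D310N 0 min replicate 1, and without D310N 30 min replicate 3. In WT cells Vash2 and Nsl1 fell by 2.46 and 1.82 at 360 min (adjusted p = 6.02e-14 and 4.15e-14). Ppp2r5a, a regulatory subunit of protein phosphatase 2A, rose by 1.85 at 240 min (adjusted p = 1.83e-29). Batf3, a family member that lies 61351 bases away, rose by 0.79 at 240 min (adjusted p = 0.000223), and none of the 8 passed the test as higher at 30 or 60 min.

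Some facts of the whole series touch these values. Library medians ran from 6.83 to 7.2 log2, and read depth is unknown. WT 360 min replicate 1 stood apart, with a root mean square deviation from its group mean of 0.246 over all genes tested, where the others had 0.084 to 0.177. All 8 macrophage markers were tested, and the log2 of their summed level was 17.6 to 18 in D310N libraries and 17.7 to 18 in WT libraries. Of these 8, limma called 1 higher and 3 lower in D310N cells at 120 min and again at 240 min. Among all genes tested, 7.94% and 6.98% were called higher and 9.72% and 10.0% lower at these times. Neutrophil markers (2 of 7 tested, with Ly6g, Elane and Mpo under the filter) summed to 4.31 to 5.24 in D310N and 4.14 to 4.89 in WT libraries, and both tested ones had an unadjusted p under 0.05 at 120 min, with a median difference of 0.44. At 360 min limma called 1 of these 2 higher in D310N cells, where 6.8% of all genes tested were called higher. Dendritic cell markers (3 of 5) summed to 4.46 to 7.3 in D310N and 4.42 to 7.76 in WT libraries. At 120 min 1 of these 3 was called higher in D310N cells, against 7.94% of all genes tested. All 3 rose in WT cells at 120, 240 and 360 min, with medians of 2.31, 2.47 and 2.98 log2. The shares of all genes tested that rose were 32.4%, 39.6% and 39.3%. The 6 lymphocyte markers in the table were all below the filter, and 1 of the 4 stromal and erythroid markers in it was tested. The part of these markers in the results was not tested. Tnip2, which the mutation changes at 1 codon, had mean values of 8.87 to 9.34 in D310N cells and 8.82 to 9.25 in WT cells, so its RNA level does not check the labels.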

How the data were processed

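RNA of 36 macrophage libraries was measured by sequencing, and 1 table of log2 normalised values per gene was deposited by the authors. STAR 2.5.2a, RSEM 1.2.31, DESeq2 1.10.1 and the mm10 build are named in the submitters' processing notes, with no role or order. How the values were normalised and transformed is not given in the sources used here; they run from −4.14 to 19.3 log2. The table holds no counts, so read depth is unknown and no counting interval is given. In a log2 table a change in a few very abundant genes, or the choice of scaling, can shift every other value.

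Of 16439 rows, 23 had a date in place of a gene name and were left out. The remaining 16416 were filtered to the 11656 with a linear value of at least 10 (3.32 log2) in at least 3 libraries. limma 3.58.1 in R 4.3.3 fitted 1 mean for each of the 12 groups, with a trend on the mean value and 24 residual degrees of freedom. p-values were adjusted by Benjamini-Hochberg within each of 22 comparisons, with a threshold of 0.05, so "called", "rose" and "fell" mean an adjusted p under 0.05. The joint test asks whether the 5 LPS responses differ between the genotypes. The fit was tested on simulated data.

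Groups follow the sample titles. Atf3, the gene lists and the genes named (members of the lists, the genes most and least like Atf3, genes within 250 kb of it, and Tnip2) were chosen with earlier results of these data known. Likeness used group means from genes with a highest mean of at least 50 and a range of at least 1 log2. Alternatives tried were quantile normalisation, median scaling, pseudocounts of 1 and 8, no filter or one of 50, a replicate block, fits on part of the libraries, and leaving out each library. Counts of called genes under these alternatives take both directions together. Gene positions come from GENCODE M21 and promoter windows from RefSeq, both on GRCm38. Python 3.11.15, pandas 2.3.3 and numpy 2.4.6 made the summaries.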

Additional observations from a re-analysis of the deposited data

Results flagged for a closer look

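Atf3 was higher in D310N cells in every library at 0 min, by 0.15 log2, and lower in every library at 60 min, by −0.49. The difference between these 2 differences was not tested. Non-overlap held for 32.7% of all genes tested at 0 min and 37.4% at 60 min, and nothing is read from it for Atf3. The 12 gene list members named with a joint test result, and no other genes described, such as Il10, Rgs1 and Nsl1, were considered next. Each of the 12 had an LPS course that differed between the genotypes by the joint limma test (adjusted p under 0.05). Among the ATF/CREB factors and dimer partners these were Batf2 (adjusted p = 0.0306), Jun (0.0246) and Junb (0.00132). The Batf2 call was lost without any 1 of 6 libraries, with adjusted p-values of 0.058 to 0.0933. Among the genes reported to be repressed by ATF3 it was Ch25h (4.31e-05), in the stress response Eif2ak2 (0.00438) and in the MAP kinase cascades Mapk14 (0.00137). Among the immediate early genes they were Egr2 (0.000106), Fosl1 (0.0114), Dusp2 (0.00162), Dusp5 (9.17e-05), Klf4 (2.06e-05) and Myc (0.0108).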

How the results depend on the processing

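The Atf3 difference between D310N and WT kept its sign at all 6 times under every alternative run, and most of its size at 60 min (−0.56 to −0.45 leaving out 1 library, −0.45 under quantile normalisation). Leaving out 1 library, it ran from 0.14 to 0.17, −0.14 to −0.10, −0.56 to −0.45, −0.32 to −0.26, −0.05 to −0.02 and 0.03 to 0.09 at the 6 times. The increments ran from 0.62 to 0.66, 0.19 to 0.29, 0.27 to 0.33, 0.85 to 0.88 and 1.01 to 1.05 in D310N cells, and from 0.90 to 0.92, 0.88 to 0.91, 0.73 to 0.75, 1.04 to 1.06 and 1.09 to 1.15 in WT cells. Their differences ran from −0.29 to −0.25, −0.71 to −0.60, −0.47 to −0.41, −0.20 to −0.17 and −0.12 to −0.06.

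Under quantile normalisation the difference was 0.11 at 0 min and −0.01 at 240 min. The D310N increments were 0.57, 0.01, −0.11, 0.11 and 0.25, that at 120 min with its sign turned, and the WT increments 0.81, 0.56, 0.26, 0.23 and 0.26. The differences of increments were −0.56, −0.37, −0.11 and −0.01 at 60 to 360 min. Under median scaling the difference at 0 min was 0.18, the D310N increment at 360 min 1.06, the WT increments 0.89, 0.77, 1.09 and 1.17 at 30, 120, 240 and 360 min, and the differences of increments −0.49 at 120 min and −0.21 at 240 min. The median of all genes tested shifted by up to −0.105 (240 min against 0 min in D310N cells) under quantile normalisation, against −0.022 as deposited. The cause was not tested.

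Over all genes, 1250, 1498 and 1903 were called between the genotypes at 0, 60 and 360 min, and 1896, 2387 and 12 with the libraries of that time alone. For WT cells at 30 min 710 were called, and 1222 under quantile normalisation. Leaving out 1 library, the counts at the 6 times ran from 716 to 1807, 861 to 1975, 986 to 2084, 1510 to 2759, 1190 to 2803 and 1115 to 2346. For WT cells after LPS they ran from 504 to 1049, 3784 to 4897, 7349 to 8117, 9039 to 9536 and 9056 to 9390, and for the joint test from 432 to 1218, with 564 over all libraries and 1218 without WT 360 min replicate 1. Tnf at 60 min turned to −0.05 under quantile normalisation and ran from −0.01 (without D310N 60 min replicate 1) to 0.06 leaving out 1 library. The 10 genes most like Atf3 kept 9 under median scaling and 8 to 10 without 1 library; quantile normalisation gave no value, since the range of Atf3 fell under 1 log2.

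With a replicate block the Atf3 differences were as without it (−0.49 at 60 min), and the counts at the 6 times were 1423, 1585, 1646, 2171, 2131 and 2049, and 618 for the joint test. Of the calls of genes named with a test, the block changed those of Il6 (adjusted p = 0.03) and Il12b (adjusted p = 0.0367) at 120 min, both gained. In the gene lists it moved the counts of called genes by over 1.5 times for the genes reported to be repressed by ATF3 at 120 min (3, against 1), the dimer partners at 240 min (2, against 1), the NF-kB and deacetylase list at 30 min (0, against 1), the MAP kinases at 30 min (2, against 1) and the TLR4 list at 360 min (2, against 1). Atf4 at 360 min turned to −0.06 without WT 360 min replicate 1. Same-numbered libraries correlated above 0.1 in all 3 pairs in 1 of 16 pairs of groups. That was D310N at 120 and 0 min (0.325, 0.373 and 0.131). On that rule the libraries were fitted as unpaired. The other D310N times against 0 min also gave positive values, 0.271, 0.419 and 0.067 at 30 min and 0.301, 0.405 and 0.037 at 60 min. They were 0.166, 0.288 and 0.1 at 240 min, and 0.176, 0.249 and 0.089 at 360 min. Whether same-numbered D310N libraries share an origin was not tested. Without depth, the error of low values cannot be set apart from the spread between libraries.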
